A study of Mus musculus with 3 samples.

Results

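Antiviral interferon effector genes are the genes whose products block virus entry, replication or release once a cell has sensed interferon. The 43 members considered here were chosen by name, as interferon-stimulated effectors outside the OAS, GBP, IRF, STAT and RNA-sensor families, and all 43 were matched by symbol among 33605 symbols in the deposited tables. They are the Ifit, Ifitm and Mx genes, the ISG15 pathway, the Parp genes with Dtx3l, the Slfn and Trim genes, enzymes that act on nucleic acids and nucleotides, and 12 others. Total RNA was measured in B cells taken from C57BL/6 spleens as the CD43-negative fraction and cultured for 3 days in RPMI1640 with lipopolysaccharide and interleukin-4. The 3 cultures received JQ1+ at 80 nM, flavopiridol at 30 nM, or DMSO as vehicle, with 1 library each. All 3 shared the stimulation and the culture time, and no culture without lipopolysaccharide or with added interferon was analysed here. How many mice gave the cells is not stated. In bulk RNA, fewer cells of a type and less RNA per cell cannot be told apart.

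Type I interferons bind a receptor made of Ifnar1 and Ifnar2, whose kinases Jak1 and Tyk2 activate transcription factors, Stat2 among them. Stat2 acts with Irf9 in a complex that binds the interferon-stimulated response element in promoters and turns on the effector genes, and Irf7 amplifies the loop by raising interferon transcription. In B cells lipopolysaccharide is sensed by Tlr4, which can reach the same genes through the adaptor Ticam1 and the factor Irf3. JQ1 competes with acetylated histones for the bromodomains of BET proteins, and flavopiridol inhibits cyclin-dependent kinases, Cdk9 among them, which allow paused polymerase to elongate.

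Promoters from the RefSeq table (build GRCm38.p6, 250 bases before to 50 after each gene start) were found for 35 of the 43 members. The core of the interferon-stimulated response element, GAAA, any 2 bases and GAAA again, was searched on both strands; on the opposite strand it reads TTTC, any 2 bases and TTTC. It was present for 14 of the 35 members (40.0%), against 1079 of 27025 symbols in the whole table (3.99%). The 8 windows below are shown because they hold the motif upstream of the start in genes whose changes differed widely. Each runs 5′ to 3′ on the gene's strand, and capitals mark the motif, with overlapping matches as 1 run.
Isg15: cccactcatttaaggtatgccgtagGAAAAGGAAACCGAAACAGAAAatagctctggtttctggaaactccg
Bst2: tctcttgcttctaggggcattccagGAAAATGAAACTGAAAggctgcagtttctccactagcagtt
Ifit1: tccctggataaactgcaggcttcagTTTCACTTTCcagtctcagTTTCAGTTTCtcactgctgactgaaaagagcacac
Ifit3: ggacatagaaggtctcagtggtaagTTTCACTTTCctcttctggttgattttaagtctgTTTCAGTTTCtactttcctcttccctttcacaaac
Ifitm2: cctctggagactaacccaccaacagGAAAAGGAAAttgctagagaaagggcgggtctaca
Slfn5: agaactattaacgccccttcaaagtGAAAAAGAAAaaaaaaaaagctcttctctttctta
Slfn8: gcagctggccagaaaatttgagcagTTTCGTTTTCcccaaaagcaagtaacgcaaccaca
Slfn9: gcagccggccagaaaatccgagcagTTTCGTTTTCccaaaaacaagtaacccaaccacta

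The Isg15 window (chr4:156200850-156200921, minus strand) has 3 overlapping matches, the first beginning 78 bases before the start. The Bst2 window (chr8:71537562-71537627, minus strand) has 2 overlapping ones. The Ifit1 window (chr19:34640760-34640838, plus strand) and the Ifit3 window (chr19:34583348-34583441, plus strand) each have 2 separate matches, all on the opposite strand. A single match stands in the windows of Ifitm2 (chr7:140955973-140956032, minus strand), Slfn5 (chr11:82951922-82951981, plus strand), Slfn8 (chr11:83020824-83020883, minus strand) and Slfn9 (chr11:82991841-82991900, minus strand). The 250 bases upstream of Slfn8 and Slfn9 were 85.1% identical where aligned without a gap, and their matches have the same 10 letters. The shorter core of the gamma-activated site, which is TTC, any 3 bases and GAA and reads the same on both strands, was present for 7 of 35 members (20.0%), against 9.55% of all symbols. In Bst2 and Ifitm3 it overlaps an interferon-response match.

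**Figure D1:**
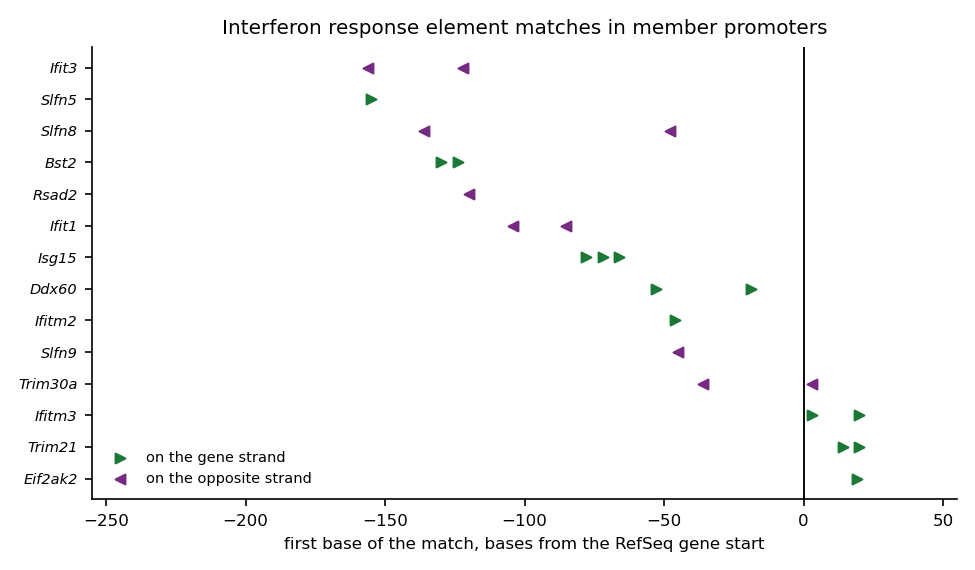
Distance in bases from the RefSeq gene start (horizontal axis, negative upstream) to the first base of each interferon-response match in the 14 member promoters that hold one; triangles pointing right are on the gene strand and those pointing left on the opposite strand. Matches run from 156 bases upstream in Ifit3 to 20 bases after the start in Ifitm3 and Trim21; the pair for Slfn8 is 1 site measured from 2 annotated starts, and the pair for Trim30a belongs to 2 different starts.

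The deposited counts summed to 51247080 in the JQ1+ library, 50184508 in the flavopiridol library and 59786847 in the DMSO library. Levels below are the authors' RPKM, read numbers scaled to gene length and library size. The summed counts were 2.72 times the library total implied by RPKM for JQ1+, 2.92 times for flavopiridol and 2.84 times for DMSO. The sources give no reason for this excess. Reads printed per gene below are the deposited counts, and the intervals use them after division by these factors, so they rest on smaller numbers. A change is log2((RPKM + 1)/(RPKM + 1)), and "rose" and "fell" stand for a change of at least 1 in size, or 2-fold, in a gene with a mean of at least 1 RPKM. Folds are ratios of plain RPKM, and their 95% intervals reflect counting error alone. With 1 library per treatment no difference has a replicate check, no p-value is given, and all values describe these libraries. The 8 B cell markers were each at 38.3 RPKM or more in every library and summed to 4892 RPKM in JQ1+, 3995 in flavopiridol and 4046 in DMSO; of these Ms4a1 (1.29) and Blk (1.04) rose with JQ1+.

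Of the 41 members with a mean of at least 1 RPKM, 36 fell with JQ1+, where 5.29% of all 14790 genes tested were lower, and none rose, where 1.98% were higher. Their median log2 change was -1.87, against -0.08 for all genes. With flavopiridol 31 of the 41 fell and none rose, where 2.88% of all genes were lower and 3.55% higher; the medians were -1.35 for the members and 0.13 for all genes. Rescaling the libraries by the median of ratios moved the flavopiridol background to 4.03% lower and 2.43% higher, and then 34 members were lower. A level of 1 RPKM was reached by 33 of these in JQ1+, 40 in flavopiridol and 41 in DMSO, so some members passed the minimum on the mean through their other levels and had to differ. Both drugs were set against the same DMSO library, so the 2 comparisons are not independent. The 2 members below the minimum were Ifi44 and Ifitm1. The RPKM of the 43 members summed to 1052 in JQ1+, 1520 in flavopiridol and 3826 in DMSO, so the pooled level was 27.5% of DMSO with JQ1+ and 39.7% with flavopiridol.

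**Figure D2:**
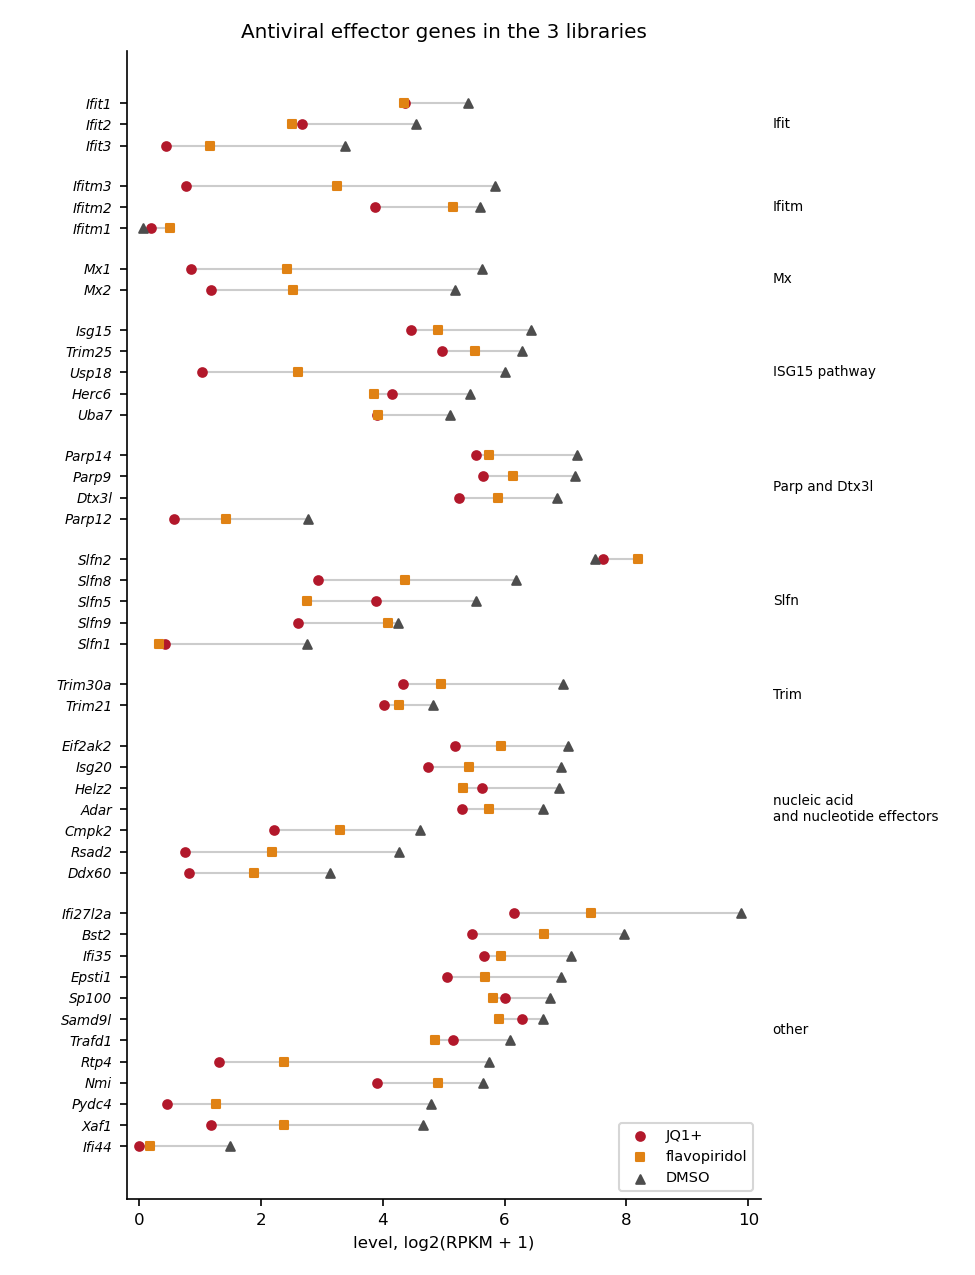
Level of each of the 43 members as log2(RPKM + 1) on the horizontal axis, in JQ1+ (circles), flavopiridol (squares) and DMSO (triangles), 1 library each, grouped by subfamily with the highest DMSO level first. Most members are highest in DMSO; Slfn2 and Ifitm1 are not.

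Set by subfamily, the Mx genes kept the smallest share of the DMSO level: their summed RPKM was 2.07 in JQ1+ and 9.18 in flavopiridol, against 83.6 in DMSO. The summed Ifitm level was 13.9% of DMSO with JQ1+ and 41.8% with flavopiridol, while the Ifit sum was 34.8% with JQ1+ and 34.7% with flavopiridol. The Slfn sum, which is mostly Slfn2, stood at 69.0% of DMSO with JQ1+ and 105% with flavopiridol. These groups hold between 2 and 12 genes each, so their sums follow their most abundant members.

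Near the 2-fold rule the calls are narrow. With JQ1+ the members just inside were Ifit1 (-1.03) and Uba7 (-1.20), and those just outside Trafd1 (-0.94) and Trim21 (-0.81). With flavopiridol Parp9 (-1.03) and Ifit1 (-1.04) were just inside, and Dtx3l (-0.96) and Sp100 (-0.93) just outside.

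The Ifit proteins bind foreign RNA ends and block its translation. All 3 fell with each drug, by different amounts. Ifit1 stood at 19.6 RPKM in JQ1+ and 19.4 in flavopiridol, against 41.1 in DMSO, which is 2.09-fold lower with JQ1+ (interval 1.84 to 2.37) and 2.12-fold lower with flavopiridol (interval 1.85 to 2.42). Ifit2 stood at 5.39 RPKM in JQ1+ and 4.69 in flavopiridol, against 22.4 in DMSO. The change of Ifit3 was the largest of the family with JQ1+: it had 0.365 RPKM in JQ1+ and 1.25 in flavopiridol, against 9.43 in DMSO, 25.9-fold lower with JQ1+ (interval 10.3 to 89.1) and 7.54-fold lower with flavopiridol (interval 4.20 to 14.4). Ifit1 under JQ1+ no longer passed 2-fold with the libraries rescaled by the median of ratios (-0.93). How reads were divided among the similar Ifit copies is uncertain. Of these paralogues Gm14446 fell with JQ1+ (-1.65) and flavopiridol (-1.42), with 6 reads in JQ1+ and 13 in flavopiridol, against 123 in DMSO.

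The Ifitm proteins sit in cell membranes and hinder the fusion of enveloped viruses. Ifitm2, Ifitm1 and Ifitm3 lie side by side on chromosome 7, and Ifitm2 and Ifitm3 changed by different amounts. Ifitm3 had 0.704 RPKM in JQ1+ and 8.55 in flavopiridol, against 56.6 in DMSO. It was 80.4-fold lower with JQ1+ (interval 28.5 to 354), which rests on 9 reads, and 6.62-fold lower with flavopiridol (interval 4.61 to 9.69). Ifitm2 stood at 13.6 RPKM in JQ1+ and 34.5 in flavopiridol, against 47.5 in DMSO. It fell with JQ1+ (3.49-fold, interval 2.62 to 4.71) and had a log2 change of -0.45 with flavopiridol. Ifitm1, between them, had 3 reads in JQ1+, 8 in flavopiridol and 1 in DMSO, too few to compare. Of 4 other Ifitm genes found, none reached 1 RPKM on average.

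The Mx genes encode dynamin-like GTPases that trap viral nucleocapsids. The RefSeq table of the C57BL/6J genome lists both as transcribed pseudogenes, while the deposited tables call them protein-coding. Their RNA was among the most changed here. Mx1 had 0.800 RPKM in JQ1+ and 4.39 in flavopiridol, against 48.3 in DMSO, 60.3-fold lower with JQ1+ (interval 39.0 to 98.7) and 11.0-fold lower with flavopiridol (interval 8.90 to 13.7). Mx2 had 1.27 RPKM in JQ1+ and 4.80 in flavopiridol, against 35.4 in DMSO. It was 27.8-fold lower with JQ1+ (interval 18.1 to 45.0) and 7.38-fold lower with flavopiridol (interval 5.74 to 9.62). In both genes the flavopiridol level lay between the other 2.

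Isg15 is a ubiquitin-like protein that is attached to other proteins by the activating enzyme Uba7 and ligases such as Herc6, and taken off by Usp18. All 5 members of this pathway fell with JQ1+ and 4 with flavopiridol, and the remover changed far more than the tag or the attaching enzymes. Usp18, which also damps interferon receptor signalling, had 1.05 RPKM in JQ1+ and 5.09 in flavopiridol, against 63.5 in DMSO. It was 60.5-fold lower with JQ1+ (interval 35.1 to 115) and 12.5-fold lower with flavopiridol (interval 9.42 to 16.8). Isg15 itself, whose promoter window is printed above, stood at 21.1 RPKM in JQ1+ and 28.9 in flavopiridol, against 85.2 in DMSO, 4.05-fold lower with JQ1+ (interval 3.28 to 5.03) and 2.95-fold lower with flavopiridol (interval 2.42 to 3.61). Uba7 had 14.05 RPKM in JQ1+ and 14.2 in flavopiridol, against 33.5 in DMSO, and was close to equal in the 2 drug libraries.

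The ligases changed less than Usp18. Herc6, the main Isg15 ligase in mice, had 16.8 RPKM in JQ1+ and 13.4 in flavopiridol, against 42.0 in DMSO. Trim25, a ligase that also activates the RNA sensor RIG-I, had 30.6 RPKM in JQ1+ and 44.5 in flavopiridol, against 77.5 in DMSO; it fell with JQ1+ (-1.31) and stood at -0.79 with flavopiridol. Outside the members, the Isg15 conjugating enzyme Ube2l6 fell with JQ1+ (-2.19) and with flavopiridol (-1.73), at 4.81 RPKM in JQ1+, 6.99 in flavopiridol and 25.4 in DMSO. The other 6 tested genes of that list were within 2-fold with each drug.

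**Figure D3:**
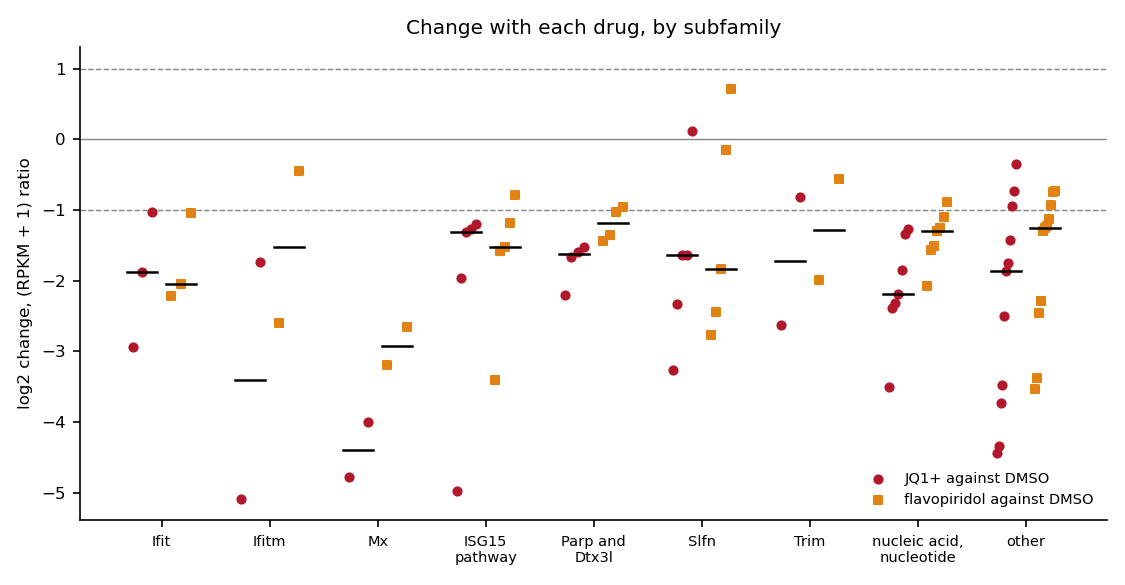
Log2 change of each member with a mean of at least 1 RPKM, for JQ1+ against DMSO (circles) and flavopiridol against DMSO (squares), by subfamily; bars are medians and dashed lines mark 2-fold. The Mx genes lie lowest as a pair, while the Slfn genes span the widest range with flavopiridol, between -2.77 and 0.71.

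Parp9, Parp12 and Parp14 belong to the ADP-ribosyltransferase family, and Dtx3l is the ubiquitin ligase that works as a partner of Parp9. Parp14, Dtx3l and Parp9 are neighbours on chromosome 16, with log2 changes between -1.66 and -1.52 with JQ1+ and between -1.44 and -0.96 with flavopiridol. Parp14 had 45.1 RPKM in JQ1+ and 52.5 in flavopiridol, against 145 in DMSO, 3.20-fold lower with JQ1+ (interval 3.07 to 3.34) and 2.75-fold lower with flavopiridol (interval 2.64 to 2.87). Parp9 had 48.9 RPKM in JQ1+ and 69.1 in flavopiridol, against 142 in DMSO. Dtx3l had 37.2 RPKM in JQ1+ and 58.4 in flavopiridol, against 115 in DMSO; its change with flavopiridol was -0.96, and -1.13 after rescaling by the median of ratios. The use of strand in counting is not given, so reads of overlapping transcripts of Parp9 and Dtx3l cannot be told apart.

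Parp12, which lies elsewhere, was far lower in level and fell more with JQ1+. It had 0.491 RPKM in JQ1+ and 1.68 in flavopiridol, against 5.83 in DMSO, 11.9-fold lower with JQ1+ (interval 6.85 to 22.4) and 3.48-fold lower with flavopiridol (interval 2.45 to 5.06). Of 12 other Parp family genes, 2 fell with JQ1+, Parp8 (-1.73) and Parp10 (-1.27), with a median of -0.22. None of the 12 passed 2-fold with flavopiridol, where the median was -0.25.

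The Slfn genes, named for schlafen, encode proteins that restrain lymphocyte growth and, in part, cut transfer RNA. The 5 members lie in a row on chromosome 11, in the order Slfn5, Slfn9, Slfn8, Slfn2 and Slfn1, and they diverged from one another. Slfn2, which keeps T cells quiescent, was the only member with a mean of at least 1 RPKM that was not lower than DMSO with either drug. It had 194 RPKM in JQ1+ and 292 in flavopiridol, against 178 in DMSO, log2 changes of 0.12 with JQ1+ and 0.71 with flavopiridol that did not pass 2-fold. Slfn1 had 0.342 RPKM in JQ1+ and 0.250 in flavopiridol, against 5.77 in DMSO, resting on 12 reads in JQ1+, 8 in flavopiridol and 226 in DMSO.

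Slfn5, Slfn8 and Slfn9 all hold the motif upstream, and they differed in which drug gave the lower level. Slfn5 had 13.9 RPKM in JQ1+ and 5.79 in flavopiridol, against 45.3 in DMSO, 3.27-fold lower with JQ1+ (interval 2.93 to 3.65) and 7.82-fold lower with flavopiridol (interval 6.61 to 9.31). Slfn8 had 6.63 RPKM in JQ1+ and 19.5 in flavopiridol, against 71.9 in DMSO, 10.9-fold lower with JQ1+ (interval 9.34 to 12.7) and 3.68-fold lower with flavopiridol (interval 3.33 to 4.08). Slfn9 had 5.09 RPKM in JQ1+ and 16.01 in flavopiridol, against 18.0 in DMSO. It fell with JQ1+ (3.54-fold, interval 2.98 to 4.22), and with flavopiridol its ratio to DMSO had an interval that includes 1 (1.12-fold lower, 0.994 to 1.27). Slfn8 and Slfn9 are close copies, so reads may be split between them unevenly. Outside the members Slfn10-ps, a pseudogene of the family, fell with JQ1+ (-1.34), and Slfn3 did not pass 2-fold with either drug (0.18 with JQ1+, 0.35 with flavopiridol).

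Trim proteins are ubiquitin ligases, several of which restrict viruses. Trim30a had 19.1 RPKM in JQ1+ and 30.2 in flavopiridol, against 123 in DMSO, 6.46-fold lower with JQ1+ (interval 6.05 to 6.90) and 4.09-fold lower with flavopiridol (interval 3.86 to 4.33). Trim21, a receptor inside cells for antibody-coated virus, had 15.2 RPKM in JQ1+ and 18.3 in flavopiridol, against 27.5 in DMSO, and passed 2-fold with neither drug (-0.81 with JQ1+, -0.56 with flavopiridol). Of 27 other Trim genes tested, 6 fell with JQ1+ and 3 with flavopiridol, and none rose. The 3 were Trim30b (-1.84), Trim30c (-1.80) and Trim30d (-1.73), which are close copies of Trim30a and share its reads to an unknown extent; with JQ1+ the changes were -1.47, -2.45 and -2.27. The other 3 lower with JQ1+ were Trim34a (-1.37), Trim12c (-1.03) and Trim34b (-1.01). The median of the 27 was -0.28 with JQ1+ and -0.09 with flavopiridol.

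**Figure D4:**
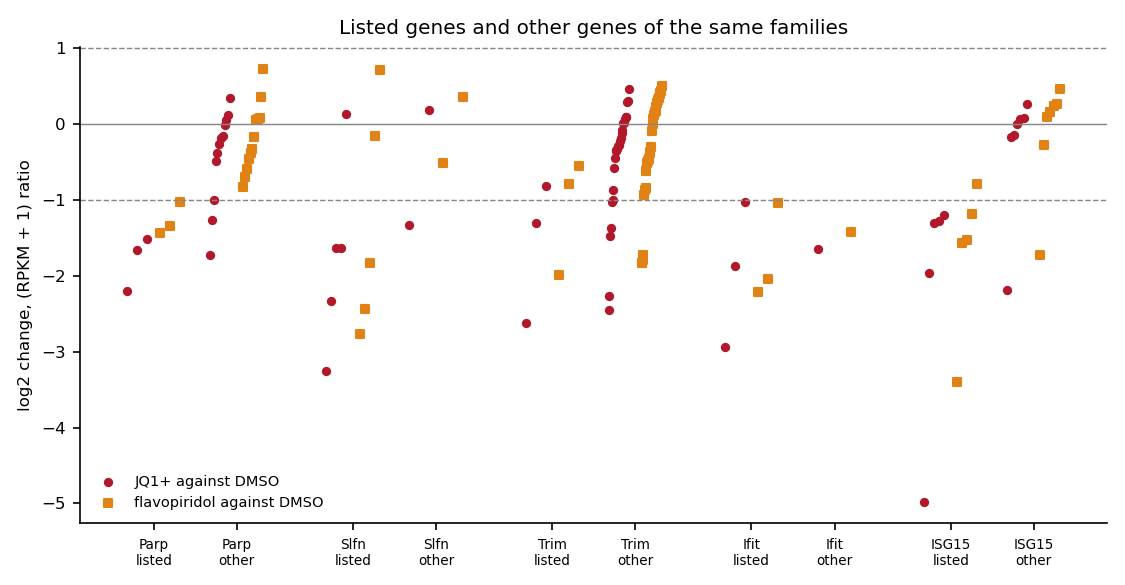
Log2 change of listed members and of other genes of the same families with a mean of at least 1 RPKM, for JQ1+ against DMSO (circles) and flavopiridol against DMSO (squares); dashed lines mark 2-fold. ISG15 stands for the ISG15 pathway, in which Trim25 is also plotted. Most of the 27 other Trim and 12 other Parp genes lie within 2-fold.

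The members that act on nucleic acids and nucleotides all fell with JQ1+, 7 of 7, and 6 fell with flavopiridol. Rsad2, or viperin, makes a nucleotide that ends viral RNA chains, and its neighbour Cmpk2 on chromosome 12 supplies nucleotides to it. Rsad2 had 0.687 RPKM in JQ1+ and 3.56 in flavopiridol, against 18.2 in DMSO, 26.5-fold lower with JQ1+ (interval 17.1 to 43.4) and 5.11-fold lower with flavopiridol (interval 4.08 to 6.43). Cmpk2 fell less, with 3.67 RPKM in JQ1+ and 8.88 in flavopiridol, against 23.4 in DMSO, 6.38-fold lower with JQ1+ (interval 5.05 to 8.15) and 2.63-fold lower with flavopiridol (interval 2.21 to 3.15). The intervals of these neighbours do not overlap with either drug.

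Eif2ak2 and Adar act on double-stranded RNA, the first as the kinase PKR that halts translation and the second as an editor of adenosine. Eif2ak2 had 35.4 RPKM in JQ1+ and 60.5 in flavopiridol, against 130 in DMSO, 3.68-fold lower with JQ1+ (interval 3.46 to 3.92) and 2.16-fold lower with flavopiridol (interval 2.04 to 2.28). Adar had 38.3 RPKM in JQ1+ and 52.5 in flavopiridol, against 98.4 in DMSO; it fell with JQ1+ (-1.34) and stood at -0.89 with flavopiridol. Isg20, an exonuclease, had 25.7 RPKM in JQ1+ and 41.8 in flavopiridol, against 121 in DMSO. The helicases differed in which drug gave the lower level. Ddx60 had 0.762 RPKM in JQ1+ and 2.70 in flavopiridol, against 7.79 in DMSO. Helz2 had 48.3 RPKM in JQ1+ and 39.0 in flavopiridol, against 118 in DMSO.

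Among the other members Ifi27l2a, a small membrane protein, had the highest level in DMSO, with 70.0 RPKM in JQ1+ and 170 in flavopiridol, against 941 in DMSO. It was 13.4-fold lower with JQ1+ (interval 11.7 to 15.5) and 5.53-fold lower with flavopiridol (interval 5.01 to 6.11). Bst2, or tetherin, which holds budding virus at the cell surface, had 42.96 RPKM in JQ1+ and 99.8 in flavopiridol, against 247 in DMSO. Next in DMSO level came Ifi35, with 49.5 RPKM in JQ1+ and 60.7 in flavopiridol, against 135 in DMSO, and Epsti1, with 32.4 in JQ1+ and 50.2 in flavopiridol, against 121 in DMSO. All 4 fell with each drug.

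Rtp4, Pydc4 and Xaf1 fell with each drug and stood at lower levels. Rtp4, a chaperone of receptors that restricts some viruses, had 1.48 RPKM in JQ1+ and 4.19 in flavopiridol, against 52.8 in DMSO, 35.6-fold lower with JQ1+ (interval 21.8 to 62.4) and 12.6-fold lower with flavopiridol (interval 9.10 to 17.9). Pydc4, a pyrin domain protein, had 0.380 RPKM in JQ1+ and 1.41 in flavopiridol, against 26.7 in DMSO. Its 70.4-fold lower level with JQ1+ (interval 39.2 to 141) and 19.0-fold lower level with flavopiridol (interval 13.4 to 27.3) were among the most extreme of the 41. Xaf1, a pro-apoptotic partner of XIAP, had 1.28 RPKM in JQ1+ and 4.20 in flavopiridol, against 24.3 in DMSO. Ifi44 had no reads in JQ1+ and 14 in flavopiridol, against 232 in DMSO, where it stood at 3.88 CPM, counts scaled to library total. The floor of the JQ1+ library was taken as 3 counts, divided as for the intervals and equal to 0.159 CPM. The DMSO level of Ifi44 was 24.4 times that floor, with its DMSO count taken as exact. The counting interval, which lets both counts vary, begins at 20.25-fold lower with JQ1+.

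Of the last 4 members, none passed 2-fold with both drugs. Samd9l, which restricts poxviruses, had 76.9 RPKM in JQ1+ and 59.1 in flavopiridol, against 98.4 in DMSO (-0.35 with JQ1+, -0.73 with flavopiridol). Sp100, a nuclear body protein, had 63.5 RPKM in JQ1+ and 55.3 in flavopiridol, against 106 in DMSO (-0.74 with JQ1+, -0.93 with flavopiridol). Trafd1, an inhibitor of Toll-like receptor signalling, had 34.5 RPKM in JQ1+ and 28.1 in flavopiridol, against 67.1 in DMSO, and passed 2-fold with flavopiridol (-1.23) and not with JQ1+ (-0.94). Nmi, which binds Ifi35, had 14.0 RPKM in JQ1+ and 29.1 in flavopiridol, against 49.3 in DMSO, and passed 2-fold with JQ1+ (-1.75) and not with flavopiridol (-0.74). All 4 were below DMSO in each drug library.

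The drugs were then set side by side, a comparison that does not use the DMSO library. The doses were 80 nM for JQ1+ and 30 nM for flavopiridol, which have unlike structures, so the difference is between these cultures and not between matched doses. Of the 41 members, 15 were lower in JQ1+ than in flavopiridol by the 2-fold rule, where 6.87% of all genes were. By the same rule 1 was higher, where 2.06% of all genes were. The median was -0.64 for the members and -0.21 for all genes. With median-of-ratios scaling, where the median of all genes shifted by 0.25, 8 members were lower and 1 higher, against 3.89% and 3.60% of all genes, and the member median was -0.37. The members that then no longer passed were Bst2, Rtp4, Cmpk2, Xaf1, Ifi27l2a, Nmi and Ddx60. Just inside the 2-fold rule were Nmi and Rtp4 (-1.06), and just outside Parp12 (-0.84) and Pydc4 (-0.80).

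Ifitm3 had the lowest ratio of JQ1+ to flavopiridol, a 12.2-fold lower level in JQ1+ (interval 4.02 to 56.1), with 9 reads in JQ1+ and 100 in flavopiridol. Mx1 followed at 5.48-fold lower (interval 3.37 to 9.37), then Rsad2 at 5.18-fold (interval 3.19 to 8.84), Usp18 at 4.85-fold (interval 2.61 to 9.76) and Mx2 at 3.77-fold (interval 2.29 to 6.45). The intervals of these 5 genes overlap, so their order is not resolved at this depth. For Slfn9 the JQ1+ level was lower by a factor of 3.15 (interval 2.63 to 3.79) and for Slfn8 by a factor of 2.95 (interval 2.48 to 3.51), and the copies did not differ beyond counting error in this comparison. Slfn5 went the other way: its level in JQ1+ was 2.39 times that in flavopiridol (interval 1.98 to 2.90), and it was the 1 member called higher. Ifit1 (0.02), Uba7 (-0.01) and Ifit2 (0.17) were close to equal, and the counting intervals of their ratios included 1.

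**Figure D5:**
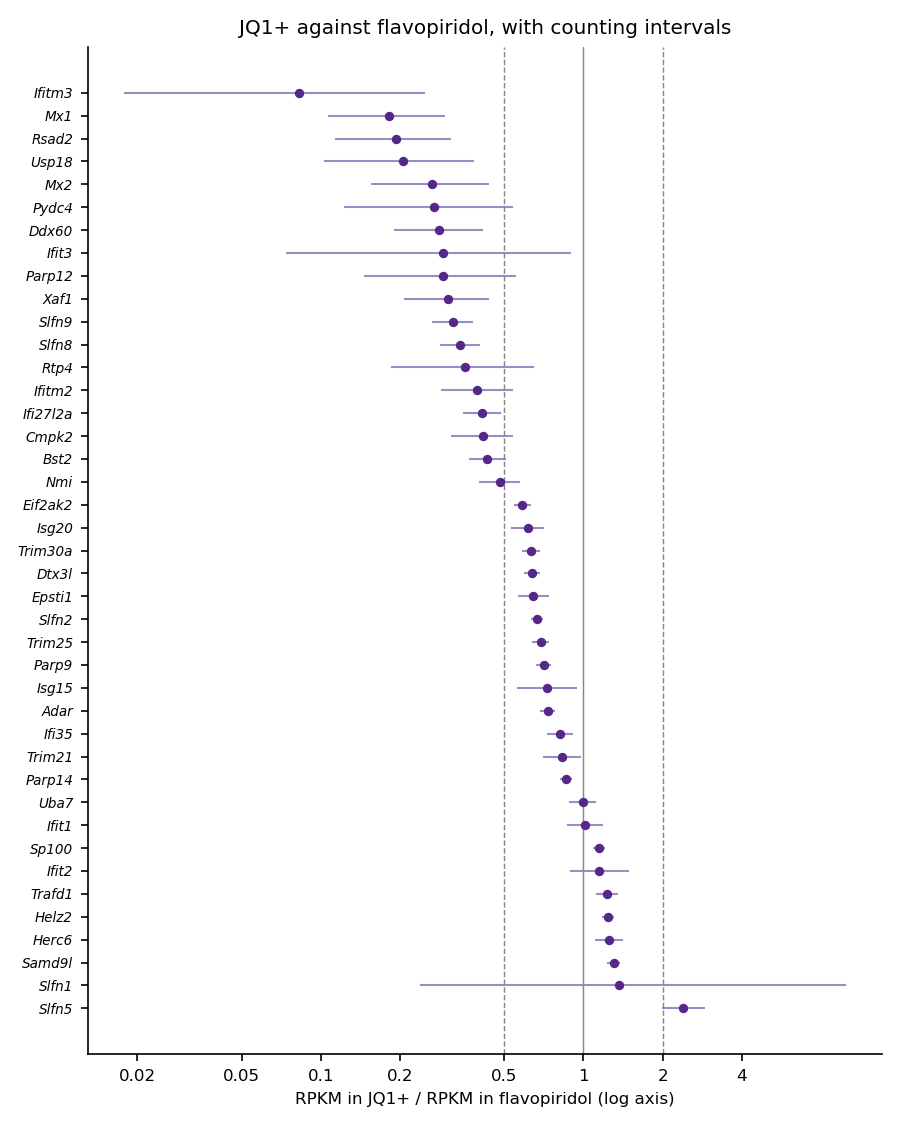
RPKM in JQ1+ divided by RPKM in flavopiridol for the 41 members with a mean of at least 1 RPKM, on a log axis with 95% intervals for counting error; dashed lines mark 2-fold. Ratios run from Ifitm3 at the low end to Slfn5 at the high end, and Slfn1, with 12 reads in JQ1+ and 8 in flavopiridol, has the widest interval.

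Members with and without the response element were compared as a description. The 14 members that hold the response element core had a median change of -2.14 with JQ1+ and -1.41 with flavopiridol. The 19 tested members whose promoter lacks it had medians of -1.43 with JQ1+ and -1.23 with flavopiridol. The ranges overlapped widely: among holders they ran from -5.08 for Ifitm3 to -0.81 for Trim21 with JQ1+. Another 8 members had no promoter entry and are in neither group: Mx1, Mx2, Usp18, Rtp4, Parp9, Parp14, Ifi27l2a and Pydc4. With JQ1+ these 8 ran from -4.98 for Usp18 to -1.52 for Parp9. Several of the largest changes are thus missing from these medians. Across all tested genes with a promoter, 58 of 331 that hold the motif (17.5%) were lower with JQ1+, against 4.55% of 8352 that lack it. With flavopiridol these shares were 10.9% of holders and 2.01% of the others. The members are included in these shares. Among holders they gave 13 of the 58 lower with JQ1+ and 11 of the 36 lower with flavopiridol. Among genes that lack the motif they gave 15 of 380 with JQ1+ and 12 of 168 with flavopiridol. A match describes letters only, and binding was not measured.

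Genes at other steps of the interferon pathway were examined next. Of 13 interferon genes matched, 8 had no reads in any library (Ifna4, Ifna7, Ifna11, Ifna12, Ifnab, Ifne, Ifnl2 and Ifnl3), and Ifnb1 had no reads in JQ1+, 2 in flavopiridol and 1 in DMSO. Only Ifnk reached a mean of 1 RPKM, at 1.38 in JQ1+, 2.17 in flavopiridol and 1.48 in DMSO. For a gene without reads, 3 counts, divided in the same way, set an upper limit of 0.159 CPM in JQ1+, 0.175 CPM in flavopiridol and 0.143 CPM in DMSO, so low interferon transcription was not detectable at this depth.

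The receptors and kinases stayed within 2-fold, 8 of 8 with each drug. Ifnar1 stood at 56.6 RPKM in JQ1+, 45.5 in flavopiridol and 41.5 in DMSO, and Tyk2 at 34.7 RPKM in JQ1+, 38.1 in flavopiridol and 31.4 in DMSO. The transcription factors followed another pattern. Irf7 had 8.87 RPKM in JQ1+ and 13.0 in flavopiridol, against 120 in DMSO, and Irf9 had 19.0 in JQ1+ and 27.1 in flavopiridol, against 59.5 in DMSO. Stat2 fell with JQ1+ (-1.01) and flavopiridol (-1.63). Irf1, Irf3 and Irf5 stayed within 2-fold with each drug.

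The lists of lipopolysaccharide route genes and of 8 inhibitors of interferon signalling held few changes. Of 12 tested genes of the lipopolysaccharide list, 1 rose with JQ1+, the Toll-like receptor homologue Cd180 (1.15), and none passed 2-fold with flavopiridol. The 12 include Tram1 (0.16 with JQ1+, 0.19 with flavopiridol), which is not the adaptor of that name, Ticam2, and is not a gene of this route. Tlr4 stood at 5.53 RPKM in JQ1+, 8.68 in flavopiridol and 6.71 in DMSO. Of the 8 listed signalling inhibitors, none passed 2-fold with JQ1+ and Socs3 fell with flavopiridol (-1.30). Usp18, which also damps this signalling and fell with each drug, is counted with the members and not in that list.

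Markers of other cells moved with these genes in part. The plasmacytoid dendritic cell list, of which Bst2 is itself a member, summed without Bst2 to 50.7 RPKM in JQ1+, 66.0 in flavopiridol and 104 in DMSO. Its defining marker Siglech was at 0 in flavopiridol and DMSO and had 2 reads in JQ1+, and Klk1 was at 0 throughout. Of that list of 6, Bst2 and Cox6a2 fell with each drug. Cox6a2 had 0.806 RPKM in JQ1+ and 12.1 in flavopiridol, against 58.3 in DMSO, and the lower sums without Bst2 follow this 1 gene. No other marker of the list passed 2-fold lower with either drug. Tcf4 stood at 49.4 RPKM in JQ1+, 51.9 in flavopiridol and 45.0 in DMSO. Ccr9 had 0.544 RPKM in JQ1+ and 1.99 in flavopiridol, against 0.871 in DMSO. Conventional dendritic cell markers summed to 10.7 RPKM in JQ1+, 35.1 in flavopiridol and 90.1 in DMSO. Batf3 and Flt3 fell with JQ1+ and Batf3 with flavopiridol. Zbtb46 stood at 4.36 RPKM in JQ1+, 6.85 in flavopiridol and 6.63 in DMSO. Xcr1 went the other way with flavopiridol, at 0.763 RPKM in JQ1+, 2.59 in flavopiridol and 0.918 in DMSO. Clec9a had 2 reads in JQ1+, 1 in flavopiridol and none in DMSO. Macrophage and monocyte markers summed to 11.8 RPKM in JQ1+, 26.1 in flavopiridol and 79.5 in DMSO. Of these Ly6c2 had 4.20 RPKM in JQ1+ and 12.1 in flavopiridol, against 71.6 in DMSO, Emr1 rose with flavopiridol (2.45), and Cd14 and Fcgr1 had 6 reads or fewer in each library. Lyz2 went the other way in JQ1+, with 48 reads in JQ1+ and 1 in flavopiridol, against 5 in DMSO, and Itgam had 61 reads in JQ1+ and 38 in flavopiridol, against 33 in DMSO. Without Ly6c2 no listed macrophage or monocyte marker passed 2-fold lower with either drug. Neutrophil, T cell and natural killer cell lists each summed to between 0.056 and 3.00 RPKM in every library, and Ly6g, S100a8, S100a9 and Ncr1 were at 0. The part of other cells in the changes of the members was not tested.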

How the data were processed

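RNA was measured in 3 libraries, 1 each for JQ1+, flavopiridol and DMSO; per the labels' protocols, RNA was Trizol-extracted, depleted with Ribo-Zero and made into Illumina libraries. Groups follow the treatment label. Each deposited table of 33700 genes gives a count, the whole number of reads per gene, and an RPKM, which the authors scaled by gene length and library size (file headers). Build mm9 is named in the submitters' processing notes; the sources used here do not give the aligner, counter, annotation or strand rule. The members, gene lists and settings were chosen with earlier results of these data known.

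Where a symbol was repeated (94 symbols), its row of highest mean RPKM was kept. A pseudocount of 1 RPKM entered the log2 change and shrinks that of low genes; genes needed a 3-library mean of 1 RPKM. No count model was run because 1 library per group gives no spread. The RPKM total, from count, RPKM and GENCODE M21 exon lengths matching within 0.1% for 43.9% to 44.1% of well-counted genes, was 18846487 for JQ1+, 17162725 for flavopiridol and 21047827 for DMSO. Counts were divided by 2.72 for JQ1+, 2.92 for flavopiridol and 2.84 for DMSO for exact conditional binomial 95% intervals, which, like the floors of 3 such divided counts, cover counting error only. Calculations were checked on simulated data. All 43 members are reported; further lists were described by counts, with up to 4 of their most changed genes named, and other genes of these lists were named after their values were seen. Alternatives were pseudocounts of 0.1 and 5, no minimum or 5 RPKM, median-of-ratios and TMM scaling (edgeR 4.0.16), CPM computed here from the deposited counts, and a counting interval that excludes 1. Python 3.11.15 and scipy 1.17.1 were used. RefSeq promoters are of build GRCm38.p6, so no position is on mm9; 8 members had no entry and were not searched. Part of the transcription factor list is not reported here.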

Additional observations from a re-analysis of the deposited data

How the results depend on the processing

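No paired analysis was possible because each treatment has 1 library; for the same reason no library could be left out. Counts of members that fell with each drug against DMSO stayed within 1.5 times of 36 and 31 under all 8 alternatives, between 32 and 37 with JQ1+ and between 27 and 34 with flavopiridol, and none rose; no median changed sign. Counts between the drugs depended on the setting. The 15 members lower in JQ1+ became 18 with a pseudocount of 0.1 and 6 with a pseudocount of 5. They became 8 with median-of-ratios scaling, 10 with TMM and 13 in CPM. Slfn5, the 1 higher, became 0 with a pseudocount of 5. A larger pseudocount shrinks changes by construction, and median-of-ratios scaling moved the median of all genes by 0.25 between the drugs, 0.09 for JQ1+ and -0.16 for flavopiridol against DMSO. The median with JQ1+ (-1.87) was -1.50 with a pseudocount of 5, -1.75 with a minimum of 5 RPKM and -1.77 with median-of-ratios scaling. The median with flavopiridol (-1.35) was -1.49 with a pseudocount of 0.1, -1.19 with 5, -1.47 with median-of-ratios or TMM scaling and -1.48 in CPM. Between the drugs the median (-0.64) was -0.48 with a pseudocount of 5, -0.37 with median-of-ratios scaling, -0.39 with TMM and -0.52 in CPM. The direction between the drugs turned for Parp14 (-0.21, then 0.06), Trim21 (-0.25, then 0.01) and Uba7 (-0.01, then 0.25) with median-of-ratios scaling. Depth limits Ifitm3, Slfn1, Ifit3 and Ifi44, each with 12 reads or fewer in JQ1+.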
